A study of Mus musculus with 5 samples.

Results

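The signal transducers that lie between receptors of the tumor necrosis factor family and the NF-κB dimer of RELB and p52 were followed here in germinal center B cells with floxed or intact genes of that dimer. The 10 genes were chosen by name, with earlier results of these data known, and not by a threshold on their values: the adaptors Traf1, Traf2, Traf3, Traf5 and Traf6, the ubiquitin ligases Birc2 (cIAP1) and Birc3 (cIAP2), the kinase Map3k14 (NIK), and the IκB kinases Chuk (IKKα) and Ikbkb (IKKβ). All 10 of the 10 names were found once among 38924 rows, and all 10 passed the filter on low values. B cells were sorted by flow cytometry from spleens of 12-week-old littermate mice on day 7 after immunization with sheep red blood cells, and the series title calls the cells eGFP+. The control group, WT, carried Cγ1-Cre alone (3 libraries), and DKO carried floxed alleles of both Relb and Nfkb2 with the same Cre (2 libraries), so the Cre was shared by both groups. Cγ1-Cre acts once a B cell transcribes the IgG1 constant region, and the labels do not say whether each library came from 1 mouse or from a pool, so p-values measure the spread between these libraries.

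As background, the alternative NF-κB pathway is held off in unstimulated B cells by a complex in which TRAF3 binds NIK and, through TRAF2, brings it to cIAP1 and cIAP2, which mark NIK for degradation. When CD40 or the BAFF receptor is engaged, TRAF3 is degraded instead, NIK accumulates and activates IKKα, and IKKα triggers processing of the Nfkb2 product p100 to p52, the partner of RELB. IKKβ drives the canonical branch, in which IκB proteins are destroyed, and TRAF6 serves CD40 and Toll-like receptors there. Much of this control acts on proteins, which RNA levels do not show.

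Library totals ran from 34.0 to 57.6 M reads. Mitochondrial ribosomal RNA took 47.0% to 70.9% of them, and 15.4 to 17.7 M reads lay outside the mitochondrial genome. Relb stood at 136, 171 and 117 normalized counts in WT replicates 1 to 3 and at 56.9 and 10.7 in DKO replicates 1 and 2, so that DKO replicate 1 kept 40.2% of the WT mean and DKO replicate 2 kept 7.59%. For Nfkb2 the DKO libraries kept 52.5% and 13.0%. Of the 8 germinal center B cell markers, Mef2b was listed at 0 in all libraries, and the list summed to 42097 to 59834 normalized counts in WT and 46790.1 to 46980.1 in DKO. WT replicate 2 and DKO replicate 1 stood apart by transcripts of other lymphocytes: 12 T cell markers summed to 176, 1421 and 91.3 in WT and 717 and 194 in DKO, and 7 naive B cell markers to 9272, 25612 and 13282 against 21918 and 10868. In ranges, 6 NK cell markers summed to 3.84 to 330.2 in WT and 23.1 to 105 in DKO, 8 myeloid markers to 154 to 1154 and 487 to 1173, 5 plasma cell markers to 8453 to 11327 and 6837 to 7915, 5 erythroid markers to 15.5 to 19.3 and 29.7 to 102, and 6 B lineage markers to 74007 to 90955 and 72331 to 77078. The plasma cell sum was lower and the erythroid sum higher in both DKO libraries than in all WT libraries, and the part of other cells in the results that follow was not tested. In sorted bulk cells, fewer cells of a type and less RNA per cell cannot be told apart.

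None of the 10 genes passed the test between genotypes (limma, adjusted p from 0.823 to 0.989), and 0% of the 13242 genes tested passed it, with a smallest adjusted p of 0.148. Ikbkb had a higher mean in DKO and Traf1 a lower one, each with an unadjusted p under 0.05 in limma. By that rule 3.69% of all genes were higher and 2.37% lower, against which 1 of 10 in each direction, a single gene, is no result about the group. In Chuk and Ikbkb both DKO libraries lay above all WT libraries, as in 12.5% of all genes, and in Traf1 both lay below, as in 11% of all genes. The other 7 overlapped between the groups. The median log2 fold change of the 10 genes was 0.07, with 6 above 0 and 4 below, and that of all genes tested was 0.001. DESeq2 on the reads recovered from the table called 0 of the 10 and 0.219% of the genes to which it gave an adjusted p.

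**Figure D1:**
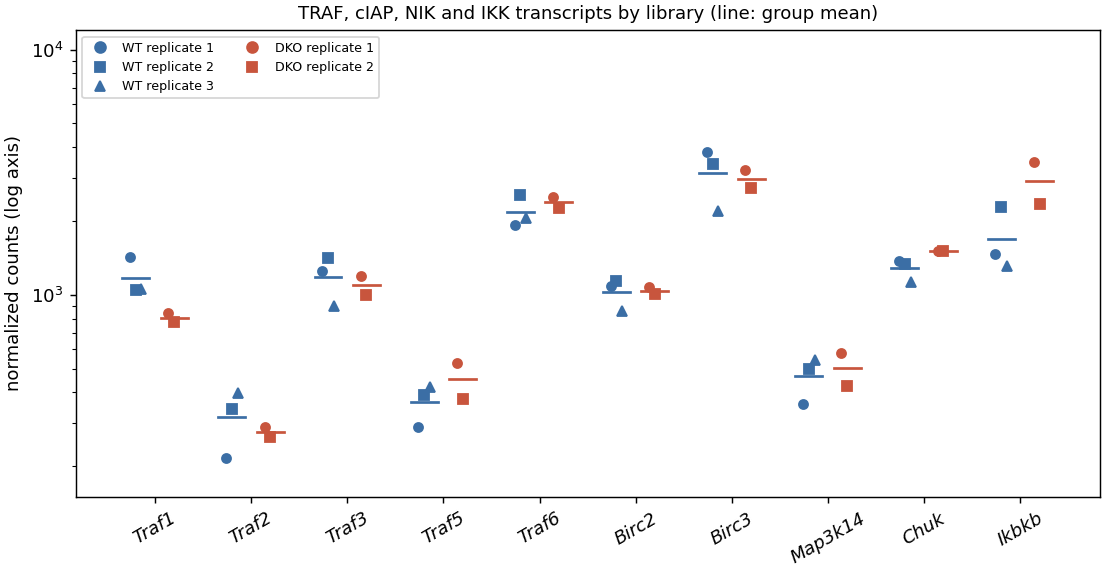
Normalized counts (log axis) of the 10 transducer genes in 3 WT and 2 DKO libraries, with 1 point per library and a line at each group mean. The DKO points lie apart from all WT points in Traf1 (842 and 772, below), Chuk (1511 and 1502, above) and Ikbkb (3473 and 2341, above), and overlap with WT in the other genes.

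The deleted factors bind κB sites, so the stretch upstream of each start site was searched for 2 forms of that motif on both strands. RefSeq promoter windows (GRCm38.p6) matched 9 of the 10 genes, all but Ikbkb, and the 250 bases before the start were read. The κB consensus motif was found in 1 of the 9 genes, Traf3, and in 3.9% of all 32851 promoter windows. The broad form GGGNNNNNCC, which contains the consensus, was found in 7 of the 9 genes and in 45.8% of all windows. A match to it is thus common, and whether these genes differ from that share was not tested. Genes were counted over any of their windows, while the share is per window. Traf1 and Birc2 held neither form. The Traf3 window ends at the last base before the start site (chr12:111166340-111166369, plus strand), and its consensus match is the last 10 bases. It is shown with the broad matches of Chuk (chr19:44107514-44107563, minus strand), Traf5 (chr1:192092777-192092826, minus strand) and Birc3 (chr9:7873198-7873247, minus strand), each read 5′ to 3′ along its gene, with the match in capitals:
Traf3: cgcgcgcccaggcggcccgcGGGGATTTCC
Chuk: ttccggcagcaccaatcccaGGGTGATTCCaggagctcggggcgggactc
Traf5: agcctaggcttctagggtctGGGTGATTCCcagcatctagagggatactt
Birc3: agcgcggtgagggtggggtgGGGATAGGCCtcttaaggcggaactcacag
Chuk and Traf5 carry the same 10 letters, at 66 to 57 and at 207 to 198 bases before their starts. In Traf5 a second match on the other strand overlaps the one shown. These are matches of letters only, and binding was not measured.

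Among the adaptors, Traf1 had the largest mean difference between the genotypes. Traf1 encodes a TRAF without a RING domain that pairs with TRAF2 and is a known NF-κB target. It had 1429, 1042 and 1056 normalized counts in the WT libraries and 842 and 772 in those of DKO. Both DKO libraries were lower than every WT library, at 71.6% and 65.7% of the WT mean, and WT replicate 1 was the highest of all. The log2 fold change was −0.53 ± 0.22 (SE), with a 95% interval from −1.03 to −0.02 (limma, unadjusted p = 0.0419, adjusted p = 0.823). It lay between −0.67 and −0.38 under 18 other settings. The unadjusted p was 0.133 without WT replicate 1 (−0.38), 0.0941 without DKO replicate 1 and 0.172 without DKO replicate 2. Without both WT replicate 2 and DKO replicate 1, the libraries with more transcripts of other lymphocytes, the value was −0.67 (unadjusted p = 0.0877). The unadjusted p was 0.116 once values were corrected for length and GC content of the transcripts (−0.42).

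The adaptors that bring NIK to its ligases overlapped between the genotypes. Traf3, the NIK-binding adaptor whose promoter holds the consensus match shown above, had 1245, 1411 and 898 normalized counts in the WT libraries and 1187 and 999 in those of DKO. The DKO values lay inside the WT range, and the log2 fold change of −0.10 ± 0.24 (SE) had a 95% interval from −0.65 to 0.46. Traf2, which links TRAF3 to the cIAPs, was the lowest in raw value, with 215, 343 and 398 in WT and 288 and 262 in DKO. WT replicate 1 held fewer Traf2 counts than either DKO library and WT replicate 3 held more, so the groups overlapped fully (−0.17 ± 0.31, SE). Its lowest library had 201 reads, for which counting alone gives a coefficient of variation of 7.05%, against 29.4% between the WT libraries. The ratio of Traf3 to Traf2 varied more within WT (5.76, 4.11 and 2.25) than it differed from DKO (4.11 and 3.80). Its log2 difference was 0.07 (exact permutation test, two-sided, p = 1). With 3 against 2 libraries that test cannot go below 0.2.

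Traf5 and Traf6 had somewhat higher means in DKO, with overlapping groups. Traf5, an adaptor of CD40 and related receptors close in structure to TRAF3, had 288, 391 and 419 normalized counts in the WT libraries and 526 and 377 in those of DKO. The gap rested on DKO replicate 1: the log2 fold change was 0.30 ± 0.28 (SE), and 0.06 without that library. Traf6, the ubiquitin ligase shared with Toll-like and interleukin 1 receptor signaling, had 1924, 2547 and 2048 in the WT libraries and 2515 and 2262 in those of DKO. WT replicate 2 exceeded both DKO libraries (0.15 ± 0.20, SE, interval −0.32 to 0.61).

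Per kilobase of transcript, the share of Traf1 among the 5 Traf genes was lower in both DKO libraries than in all WT libraries, and no test was run on it. Each gene's normalized count was divided by the length of its longest coding transcript in GENCODE M21 and given as a share of the sum over the 5. Traf1 made up 37.1%, 24.7% and 27.7% of this sum in WT and 20.7% and 22.2% in DKO. Traf6 made up 27.8%, 33.6% and 29.9% in WT and 34.4% and 36.3% in DKO. By this length both DKO libraries were above all WT libraries for the share of Traf6, and the shares of Traf2, Traf3 and Traf5 overlapped. With the median length of the coding transcripts, tried after the data were seen, Traf1 remained apart, at 29.2% to 42.8% in WT against 23.8% and 26.1% in DKO. Traf6 then overlapped, with 25.4% in WT replicate 2 and 25.3% in DKO replicate 1, and Traf5 did not, at 19.4% to 28.2% in WT against 33.4% and 28.6% in DKO. A share of one gene falls as that of another grows, so these are not separate differences.

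**Figure D2:**
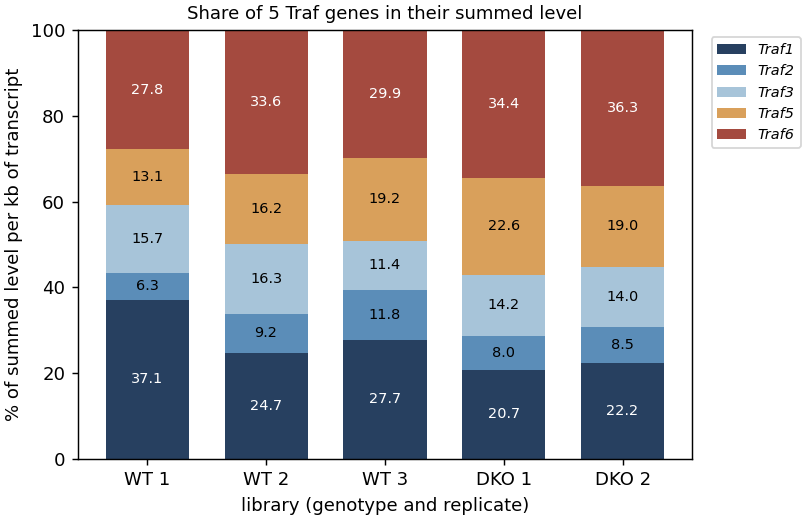
Share (%) of each of 5 Traf genes in their summed level per kilobase of the longest coding transcript, 1 bar per library. Traf1 takes 24.7% to 37.1% of the sum in WT and 20.7% to 22.2% in DKO, and Traf6 takes 27.8% to 33.6% and 34.4% to 36.3%.

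The cIAP genes, whose products ubiquitinate NIK in the resting complex, had almost equal means in both genotypes. Birc3, also a known NF-κB target, had 3814, 3428 and 2198 normalized counts in the WT libraries and 3221 and 2731 in those of DKO. The DKO libraries lay within the WT range, with WT replicate 3 the lowest of all. The log2 fold change was −0.05 ± 0.26 (SE), and the 95% interval from −0.64 to 0.54 spans folds of 0.643 to 1.46. Birc2 had 1091, 1142 and 857 in the WT libraries and 1074 and 1004 in those of DKO, again inside the WT range (0.02 ± 0.21, SE, interval −0.46 to 0.51). The ratio of Birc3 to Birc2 was 3.49, 2.999 and 2.56 in WT and 2.996 and 2.72 in DKO, with a log2 difference of −0.07 (exact permutation test, p = 0.8). Birc2 and Birc3 are neighbouring copies with 0 protein-coding genes between them in the RefSeq order. How reads shared by such copies were counted is not given in the sources used here, which leaves the split between them uncertain.

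Map3k14, which encodes NIK, the kinase at the entry to the alternative pathway, overlapped between the genotypes as well. It had 359, 499 and 540.1 normalized counts in the WT libraries and 579 and 426 in those of DKO. One DKO library lay above all WT libraries and the other lay below WT replicates 2 and 3. The log2 fold change was 0.11 ± 0.27 (SE, interval −0.50 to 0.73), and it was −0.11 without DKO replicate 1 and 0.33 without DKO replicate 2. The ratio of Map3k14 to Traf3, the kinase against the adaptor that holds it, was 0.289, 0.354 and 0.602 in WT and 0.488 and 0.427 in DKO. That is a log2 difference of 0.21 (exact permutation test, p = 0.8), with the DKO ratios between the extremes of WT.

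Of the IκB kinases, Ikbkb had the largest mean difference of the 10 genes. It encodes the kinase that marks IκBα for destruction in the canonical branch. It had 1469, 2291 and 1311 normalized counts in the WT libraries and 3473 and 2341 in those of DKO. DKO replicate 2 exceeded WT replicate 2 only slightly, while DKO replicate 1 stood at 206% of the WT mean. The log2 fold change was 0.80 ± 0.29 (SE), a fold of 1.74 with a 95% interval from 1.11 to 2.72 (limma, unadjusted p = 0.0211, adjusted p = 0.823). Within each genotype Ikbkb, like Traf3, Traf6 and Birc2, was highest in WT replicate 2 and DKO replicate 1, those richest in T cell and naive B cell markers. Without both of these the log2 fold change was 0.75 (unadjusted p = 0.0381, limma), with 1 DKO library left, whose spread is then taken from the other libraries. It was 0.51 without DKO replicate 1 (unadjusted p = 0.186) and 1.08 without DKO replicate 2 (unadjusted p = 0.0166). It was 0.72 without WT replicate 1 (unadjusted p = 0.0632), 1.04 without WT replicate 2 (unadjusted p = 0.00358) and 0.64 without WT replicate 3 (unadjusted p = 0.0563).

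Chuk was the most even of the 10 genes between the WT libraries. It encodes IKKα, the kinase that NIK activates to process p100. It had 1369, 1339 and 1132 normalized counts in the WT libraries and 1511 and 1502 in those of DKO. Both DKO libraries were above all WT libraries, yet the gap was small, at 118% and 117% of the WT mean (log2 fold change 0.24 ± 0.20, SE, interval −0.20 to 0.68, limma unadjusted p = 0.254). Across 18 other settings the value stayed between 0.15 and 0.29. Chuk lies on the same chromosome as the floxed Nfkb2, with 38 protein-coding genes between them in the RefSeq order, and effects of that linkage were not tested. The ratio of Ikbkb to Chuk was 1.07, 1.71 and 1.16 in WT and 2.30 and 1.56 in DKO. The ratios overlapped between the groups, with a log2 difference of 0.56 (exact permutation test, p = 0.4, and 1 after adjustment over the 4 ratios examined).

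**Figure D3:**
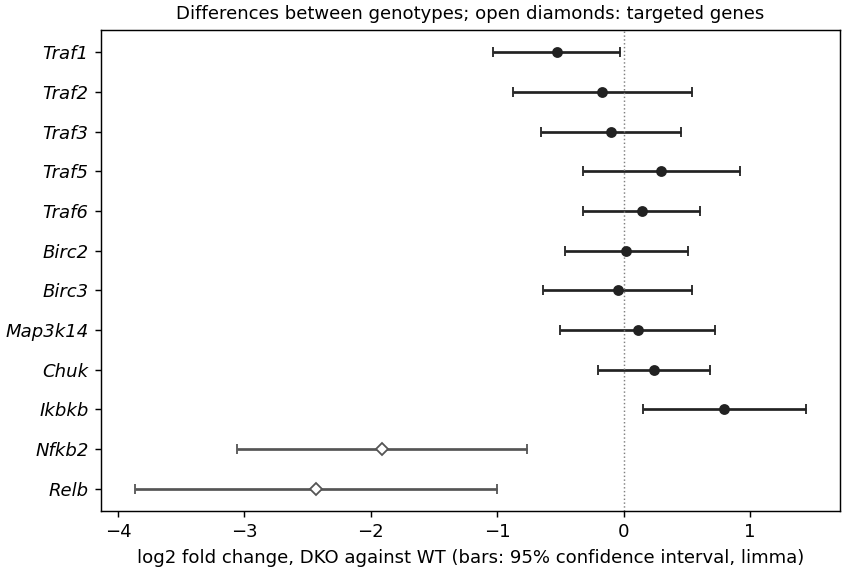
Log2 fold changes of DKO against WT with 95% confidence intervals from limma, for the 10 transducer genes (filled circles) and the targeted genes Nfkb2 and Relb (open diamonds). The intervals of Ikbkb (0.15 to 1.44) and Traf1 (−1.03 to −0.02) lie to either side of 0 before adjustment, and the other 8 transducer intervals include 0.

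Levels among the genes can be ordered once length is taken out. On the scale of normalized counts per kilobase of the longest coding transcript, Birc3 was highest in WT, at 1082 ± 290.2 (SD, n = 3). A middle group followed with Ikbkb (425 ± 132), Chuk (366 ± 36.9), Traf6 (352 ± 53.5), Traf1 (342 ± 63.9) and Birc2 (309 ± 45.6). The lowest were Traf5 (186 ± 35.1), Traf3 (168 ± 37.1), Map3k14 (109.8 ± 22.4) and Traf2 (105 ± 30.8). Neighbours in this order overlapped between WT libraries except Birc3 against Ikbkb and Birc2 against Traf5. In DKO (n = 2) the order was the same except that Birc2 (312 ± 14.9) stood before Traf1 (235 ± 14.3). Ikbkb reached 731 ± 201 there. The order depends on the transcript chosen: with the median length of the coding transcripts, Traf5 came 4th in WT, while Birc3 and Ikbkb stayed 1st and 2nd. By the longest transcript, the complex that degrades NIK includes both the most abundant of the 10 transcripts, Birc3, and the least abundant, Traf2. By the median length Map3k14 was lowest in WT.

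All 10 genes had more normalized counts in DKO replicate 1 than in DKO replicate 2, as did 51.6% of all genes tested. The larger value exceeded the smaller by 1.006 times in Chuk, 1.09 times in Traf1 and up to 1.48 times in Ikbkb. DKO replicate 1 kept more Relb and Nfkb2 and had more T cell and naive B cell marker transcripts, and the part of these in the gap was not tested. Within WT no single library was highest throughout: replicate 2 was highest in 4 genes and replicates 1 and 3 in 3 each. The coefficient of variation over the WT libraries ran from 10.1% in Chuk to 31.1% in Ikbkb. The distance from the estimate to either end of the 95% interval of the log2 fold change ran from 0.44 in Chuk to 0.71 in Traf2. These widths are before adjustment over all genes. Relb, at −2.43 ± 0.63 (SE), had an adjusted p of 0.823 (limma), so its difference went uncalled with these 5 libraries. The SE of Relb was larger than those of the 10 genes (0.20 to 0.31). Relb therefore does not show what size of difference would go uncalled among them.

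Genes around the 10 in the pathway, in 6 lists of 70 genes, gave a similar picture. Of these, 65 were tested and none passed (limma). At an unadjusted p under 0.05, 2 were higher and 2 lower, against 3.69% and 2.37% of all genes. In all, 32 had fold changes above 0 and 33 below. Among 8 further members of the TRAF, IAP and IKK families, 4 were above 0 and 4 below. Birc6, a giant inhibitor of apoptosis protein, had 11410, 9839 and 4941 normalized counts in the WT libraries and 14240 and 14051 in those of DKO (0.78 ± 0.34, SE, unadjusted p = 0.0451). WT replicate 3 was far below the other WT libraries there, and without it the value was 0.42 (unadjusted p = 0.0593). The unadjusted p was 0.125 without DKO replicate 1 and 0.127 without DKO replicate 2, and stayed under 0.05 in 10 of 18 other settings. Traf4 had a log2 fold change of −0.34 ± 0.33, and of −0.14 without DKO replicate 1 or WT replicate 3 and −0.61 without WT replicate 2.

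Adaptors and kinases that work beside the 10 genes were split in direction. Of 10 tested adaptors that bind TRAFs or their partners, 5 were above 0 and 5 below. Tnip1, a partner of the deubiquitinase A20, was at −0.36 ± 0.22 (log2 fold change, SE) and Tnip2 at 0.42 ± 0.33. The Tnip2 value was 0.037 without DKO replicate 1 and 0.80 without DKO replicate 2. Of 13 kinases and scaffolds, 8 were above 0 and 5 below. Bcl10, an adaptor of antigen receptor signaling to NF-κB, had 1784, 1226 and 1776 normalized counts in the WT libraries and 1011 and 1164 in those of DKO, without overlap (−0.53 ± 0.23, SE, unadjusted p = 0.0475). Ripk1, the kinase at the tumor necrosis factor receptor complex, had 577, 501 and 526 in the WT libraries and 426 and 373 in those of DKO, also without overlap (−0.42 ± 0.22). Bcl10 kept an unadjusted p under 0.05 when WT replicate 2 was left out, and it was 0.0828 to 0.212 without each of the other 4 libraries.

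The list of ubiquitin enzymes of the pathway also holds Sharpin and Spata2, which are not enzymes themselves. Of its 13 genes, all tested, 8 were above 0 and 5 below. In 4 of them both DKO libraries lay above all WT libraries (12.5% of all genes). Rnf31, the catalytic subunit of the linear ubiquitin ligase, had 353, 556 and 522 normalized counts in the WT libraries and 674 and 681 in those of DKO (0.53 ± 0.26, SE, limma unadjusted p = 0.0702). Its partner subunit Rbck1 had 718, 728 and 871 in WT and 1053 and 952 in DKO (0.38 ± 0.21, SE, unadjusted p = 0.102). Sharpin, a further subunit, overlapped, with 414, 444 and 558 in WT and 716 and 523 in DKO (0.39 ± 0.25, SE). Without WT replicate 1 the Rnf31 value was 0.33 (limma, unadjusted p = 0.205).

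Upstream, the list of receptors that use TRAFs had 3 genes above 0 and 9 below among 12 tested of 16, with a median of −0.16. That list also holds an adaptor and kinases that are not receptors, all below 0: Myd88 (−0.33), Irak1 (−0.21) and Irak4 (−0.16). Its counts and median are thus not of receptors alone. Cd40 had 1053, 1143 and 909 normalized counts in the WT libraries and 916 and 487 in those of DKO (−0.62 ± 0.29, SE), the low value being that of DKO replicate 2. Without that library the log2 fold change was −0.17, and it was −1.08 without DKO replicate 1. Tnfrsf4 (OX40), a receptor mainly of activated T cells, was highest in WT replicate 2, at 60.9, against 1.75 to 12.4 in the other libraries. Tnfrsf17, Ltbr, Tnfrsf1a and Tnfrsf9 did not reach the minimum value, and Ltbr, the lymphotoxin β receptor, was listed at 0 in 4 libraries and at 1.75 in DKO replicate 1. Downstream, among 9 Rel factors and IκB proteins other than the targeted genes, 4 were above 0 and 5 below. Both DKO libraries lay below all WT libraries in 4 of the 9, Rela, Nfkbia, Nfkbib and Bcl3, as in 11% of all genes. They lay above in 1, Nfkbiz, as in 12.5% of all genes. Whether this list differs from those shares was not tested. The atypical IκB proteins at the extremes were Nfkbiz (1.002 ± 0.36, unadjusted p = 0.0220) and Bcl3 (−0.69 ± 0.27, unadjusted p = 0.0288). Without DKO replicate 1 they were at 0.66 (unadjusted p = 0.188) and −0.61 (unadjusted p = 0.135). The unadjusted p of Nfkbiz also rose above 0.05 without WT replicate 2 (0.0594) or WT replicate 3 (0.0621), and that of Bcl3 without WT replicate 1 (0.0531), WT replicate 3 (0.0877) or DKO replicate 2 (0.0696).

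**Figure D4:**
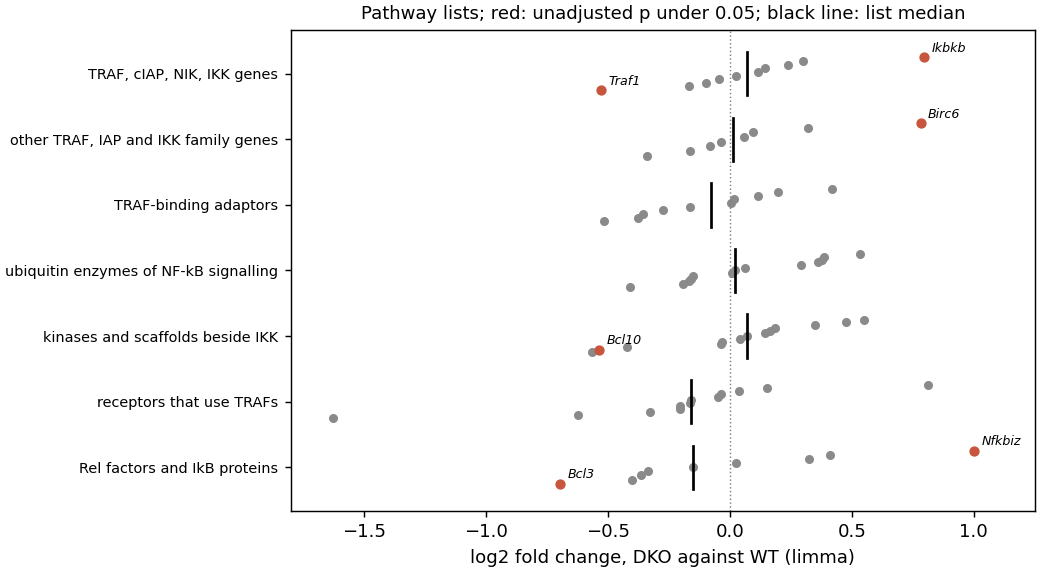
Log2 fold changes of DKO against WT (limma) for the tested genes of the transducer group and of 6 other pathway lists, 1 point per gene, with a black line at each list's median. Red points (unadjusted p under 0.05) are Ikbkb, Birc6 and Nfkbiz above 0 and Traf1, Bcl10 and Bcl3 below, and the list medians lie between −0.16 and 0.07.

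How far each fold change depends on the analysis was examined under 18 other settings. Other minimum values and a robust prior variance leave each fold change as it was, and another constant added before the logarithm barely moves it. The replicate block gives the same fold changes as leaving out WT replicate 3. Signs in such settings were thus nearly fixed, and the counts out of 18 hold fewer separate checks. Chuk, Ikbkb, Traf5 and Traf6 stayed above 0 and Traf1 below 0 in all 18. Traf2 and Traf3 kept their sign in 16, Map3k14 and Birc3 in 15 and Birc2 in 14. Ikbkb kept an unadjusted p under 0.05 in 14 of the 18 and Traf1 in 11, and no setting gave any of the 10 an adjusted p under 0.05. The lowest adjusted p was 0.496 for Ikbkb.

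**Figure D5:**
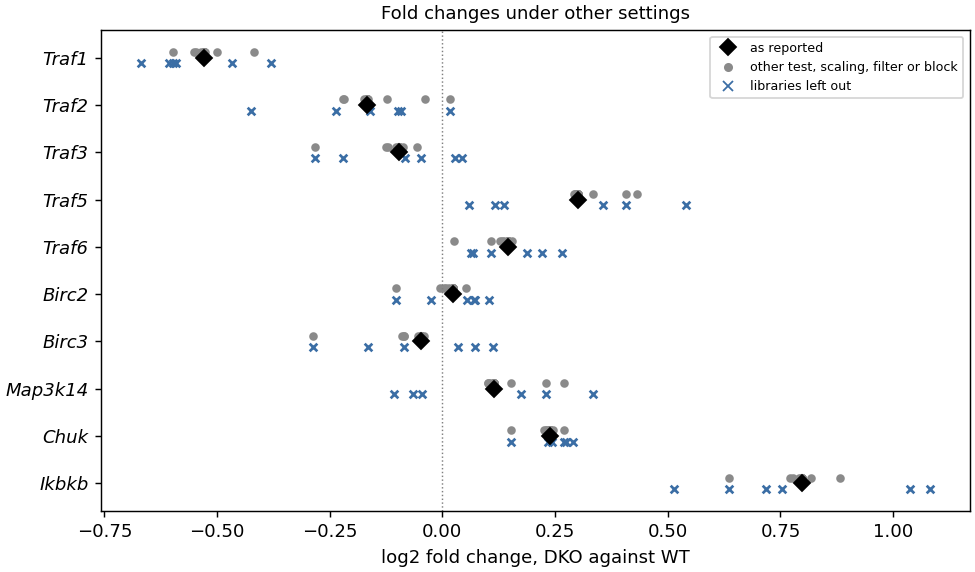
Log2 fold changes of DKO against WT for the 10 genes as reported (black diamonds), with another test, scaling, filter or replicate block (grey circles) and with libraries left out (blue crosses). Ikbkb ranges from 0.51 to 1.08 and Traf1 from −0.67 to −0.38, while Map3k14, Traf2, Traf3, Birc2 and Birc3 cross 0.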

How the data were processed

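Total RNA was amplified (NuGEN Ovation V2 kit) and read on a HiSeq2500, per the labels' protocols. TopHat2 2.0.4, Cufflinks 2.0.2, CASAVA 1.8.2 and the build mm9 are listed in the submitters' processing notes. How reads were counted, with which annotation and strand setting, and where the scaling came from is not given in the sources used here. Deposited values are a normalized signal per gene, scaled read counts by the authors: in each library 100% of those above 0 were whole multiples of 1 step, within 0.01, which gave back the reads. Of 38924 names, 37669 matched GENCODE M21 or RefSeq GRCm38.p6.

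The 13242 genes with a mean of at least 10 entered a two-sided moderated test (limma 3.58.1, R 4.3.3) of log2(value + 1) with a trended prior variance. P-values were adjusted by Benjamini-Hochberg over all of them at 0.05, and fold changes are on that scale. Residual degrees of freedom were 3. Among the alternatives, edgeR 4.0.16 and also DESeq2 1.42.0 used the recovered reads. A check on simulated counts, drawn without differences in cell content between libraries, asked only whether large fold changes were recovered in size. It set no requirement on true or false calls. The 10 genes, the lists and the settings were chosen with earlier results of these data known. From each pathway list the 2 tested genes with the smallest p were named. Tnfrsf17, Ltbr, Tnfrsf1a and Tnfrsf9 were named after their values were seen. GENCODE exons of Map3k14 and Traf5 overlap small genes whose own values reached at most 43.8.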

Additional observations from a re-analysis of the deposited data

How the results depend on the processing

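The count of genes past the adjusted threshold was 0 in limma and 0 in edgeR, 29 in DESeq2, 36 with the replicate block, and 0 to 1 when single libraries were left out. The block pairs libraries by number only and leaves 1 residual degree of freedom. It uses WT replicate 3 for no comparison, and deviations of same-numbered libraries correlated at 0.005 for number 1 and −0.28 for number 2. With 2 DKO libraries, their deviations from the DKO mean mirror each other. WT replicate 2 thus correlated at 0.28 with DKO replicate 1, and the −0.28 is not a separate check of the pairing. With the block Nfkb2 passed (log2 fold change −2.08, adjusted p = 0.0101), and none of the 10 transducer genes did. Genes higher at an unadjusted p under 0.05 numbered 489 in limma, 765 at a minimum of 1, 907 with no minimum, 270 with the replicate block and 156 without both WT replicate 2 and DKO replicate 1. They numbered 92 to 734 with single libraries left out. Genes lower numbered 314, and 168 without both libraries. The DKO minus WT difference in the log2 ratio of Birc3 to Birc2 ran from −0.18 to 0.042 over single libraries left out, that of Traf3 to Traf2 from −0.30 to 0.38 and that of Map3k14 to Traf3 from −0.016 to 0.51, so their signs depend on single libraries. That of Ikbkb to Chuk ran from 0.28 to 0.84. The cause was not tested.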
